A study of Mus musculus with 6 samples.

Results

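Most miRNAs are cut from a primary transcript by the nuclease Drosha and then trimmed by Dicer, but a few hairpins reach Dicer without Drosha. Mirtrons are short introns whose spliced and debranched lariat folds into the hairpin, so the spliceosome sets its ends. Capped hairpins are transcribed directly as a short RNA whose first base carries the cap. The 9 mature miRNAs described here were picked by name for this origin: mmu-miR-320-3p and mmu-miR-484 from capped hairpins, and mmu-miR-877-5p, mmu-miR-877-3p, mmu-miR-1224-5p, mmu-miR-3102-3p, mmu-miR-3102-5p, mmu-miR-702-3p and mmu-miR-1981-5p from mirtrons (the prefix is left out below). All 9 had a row among the 1926 miRNA features of the deposited table.

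The table holds miRNA read shares of mouse brain-derived extracellular vesicles, small membrane-bound carriers shed by cells. CON-BDEV 1 to 3 come from matched control mice, and SE-BDEV 1 to 3 from mice that went through a prolonged seizure, status epilepticus. All 6 library titles carry day 10, counted from an event that the sources used here do not give, and they give no strain, age or seizure agent. Whether each library stands for its own mouse is not labelled, so p-values measure only the spread between libraries, and that spread may be technical. Values are RPM, reads assigned to miRNAs after scaling every library to one common total, and libraries held 4400167 to 9391887 such reads. In vesicles, a change in loading and a change in the number or source of vesicles cannot be told apart.

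The introns behind the mirtrons are shown first, because their ends define the class. In GENCODE M21 (mouse build GRCm38) the RefSeq hairpins of miR-877, miR-1224 and miR-1981 have exactly the ends of an annotated intron. The miR-877 hairpin is the 85-base intron of Abcf1, a gene of translation initiation, at chr17:35960730-35960814 on the minus strand. The miR-1224 hairpin is the 85-base intron of Vwa5b2 at chr16:20604452-20604536 on the plus strand. The miR-1981 hairpin is the 82-base intron of Marc2, which encodes a mitochondrial reductase, at chr1:184822407-184822488 on the minus strand. Capitals mark the splice donor and acceptor bases (RefSeq, GRCm38.p6, 5′ to 3′):
miR-877 hairpin: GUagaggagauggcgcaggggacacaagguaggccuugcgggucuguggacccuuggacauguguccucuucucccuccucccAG
miR-1224 hairpin: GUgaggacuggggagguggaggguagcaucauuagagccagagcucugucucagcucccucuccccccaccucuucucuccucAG
miR-1981 hairpin: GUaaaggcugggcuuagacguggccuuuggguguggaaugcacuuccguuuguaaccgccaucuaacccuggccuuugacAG

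Of 1072 hairpins in the RefSeq table, 17 (1.59%) had both ends on the ends of an annotated intron. Where no hairpin was listed, the outer ends of the mature arms stood in, as for miR-3102 and, among the 17, miR-7070. The other mirtrons lay close to the ends of an intron. The miR-3102-5p arm began on the first base of a 104-base intron of Arhgef17, and miR-3102-3p ended 1 base before its last. In the 102-base intron of Plod3, a collagen-modifying enzyme, miR-702-5p began on the first base and miR-702-3p ended 2 bases before the last, while the listed hairpin reached 9 bases into the upstream exon. For miR-484 the nearest protein-coding start on its strand in this annotation belonged to Nde1, a gene of neural progenitor division, 3649 bases downstream of the hairpin's start. For the 5 mirtron hairpins the annotated ends, those of the outer arms for miR-3102, matched the mirtron label to within 9 bases. They hold no information on the cap of miR-484.

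**Figure D1:**
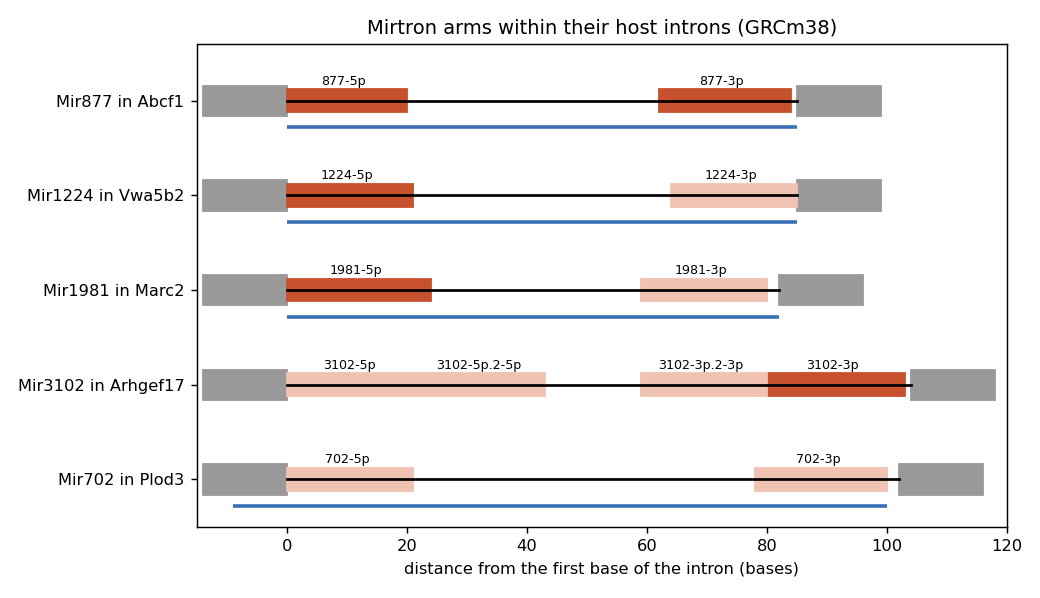
Position of each mature arm within its host intron, in bases from the first base of the intron (GRCm38); gray boxes stand for the flanking exons, drawn 14 bases long and not to their length, blue lines for the listed hairpin, dark red for arms with a mean of 10 RPM or more and pale red for arms below it. In all 5 introns the 5p arm starts on the first intron base.

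The mature sequences follow, from RefSeq (GRCm38.p6), with bases 2 to 8, the seed that pairs with target mRNAs, in capitals. The miR-702-5p arm is added because it shares its seed with miR-3102-5p:
miR-484: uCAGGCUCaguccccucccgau
miR-877-5p: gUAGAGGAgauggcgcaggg
miR-877-3p: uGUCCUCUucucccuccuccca
miR-1224-5p: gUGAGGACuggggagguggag
miR-3102-3p: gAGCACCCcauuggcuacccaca
miR-3102-5p: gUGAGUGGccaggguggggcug
miR-702-3p: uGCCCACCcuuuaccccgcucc
miR-1981-5p: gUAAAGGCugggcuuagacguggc
miR-702-5p: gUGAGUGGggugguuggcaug

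All 4 mirtron 5p arms among the 9 began with GU, the splice donor bases, against 37 of 690 5p arms with a sequence in the table (5.36%). This follows from their start on the first base of an intron, and the 37 include them. Only the seed of miR-3102-5p and miR-702-5p occurred in more than 1 of these arms, and no other feature with a sequence shared a seed with the 8 sequenced members. Their GC content ran from 58.3% to 72.7% with a median of 64.3%. The 268 tested miRNAs with a sequence had a median of 50%.

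By mean level over the 6 libraries, miR-320-3p ranked 48th of all features, at 996 RPM. It was followed by miR-877-5p (rank 76, 354 RPM), miR-1981-5p (rank 80, 298 RPM), miR-1224-5p (rank 146, 73.8 RPM), miR-877-3p (rank 251, 17.4 RPM) and miR-3102-3p (rank 262, 16.3 RPM). Down to miR-877-3p, each was above the next in 6 of 6 libraries, although miR-877-5p exceeded miR-1981-5p by only 1.04 to 1.27 times. miR-877-3p and miR-3102-3p were not ordered, the first being higher in 3 of 6 libraries. miR-484 (7.51 RPM) and miR-702-3p (7.13 RPM) were not ordered either, with miR-484 higher in 3 of 6. These are read shares within libraries, and no correction for how well each sequence is captured was made.

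miR-320-3p, the 3p arm of a capped hairpin, stood at 1940, 668 and 786 RPM in CON-BDEV 1 to 3 and at 761, 791 and 1030 RPM in SE-BDEV 1 to 3. CON-BDEV 1 was the highest library, and the other 5 overlapped. The CON-BDEV mean was 1131 ± 703 RPM and the SE-BDEV mean 861 ± 147 RPM (SD, n = 3). The difference, SE-BDEV minus CON-BDEV on the log2(RPM + 1) scale, was -0.24 ± 0.37 (SE, limma adjusted p = 0.830). Without CON-BDEV 1 it turned to 0.23 ± 0.26 (adjusted p = 0.860). Its other arm, miR-320-5p, was listed at 0 in all 6 libraries.

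miR-484 was sparse in these vesicles, with 26 to 92 reads per library. It was at 5.91, 3.19 and 7.75 RPM in CON-BDEV and at 9.80, 5.20 and 13.2 RPM in SE-BDEV. The groups overlapped, SE-BDEV 2 lying below CON-BDEV 1 and 3. Its mean fell under the 10 RPM needed to enter the main test. Without that filter the log2 difference was 0.64 ± 0.45 (SE, limma adjusted p = 0.753). It was 0.34 when CON-BDEV 2 was left out, 0.37 when SE-BDEV 3 was, 0.97 when SE-BDEV 2 was, and 0.30 at a pseudocount of 10 RPM. This was a positive difference, unlike those of the 6 members in the main test.

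miR-877-5p, the major arm of the Abcf1 intron, was at 589, 288 and 301 RPM in CON-BDEV and at 312, 343 and 290 RPM in SE-BDEV. CON-BDEV 1 again stood alone and the other 5 libraries lay within 288 to 343 RPM. The log2 difference was -0.24 ± 0.33 (SE, limma adjusted p = 0.800), and without CON-BDEV 1 it was 0.0930 ± 0.25 (adjusted p = 0.925).

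The minor arm, miR-877-3p, was at 26.6, 16.0 and 18.5 RPM in CON-BDEV and at 13.0, 22.2 and 8.30 RPM in SE-BDEV. Here SE-BDEV 2 lay within the control range and the other 2 SE-BDEV libraries below it. The log2 difference was -0.53 ± 0.39 (SE, limma adjusted p = 0.653). It was -0.33 when CON-BDEV 1 was left out, -0.21 when SE-BDEV 3 was, and -0.87 when SE-BDEV 2 was. miR-877-5p exceeded miR-877-3p by 15.4 to 34.9 times within a library. Their log2 ratio, taken on RPM + 1 within each library, was 4.15 ± 0.24 for the controls and 4.45 ± 0.54 after status epilepticus (SD, n = 3, two-sided exact permutation p = 0.5, smallest possible 0.1). The difference of 0.29 fell to 0.0984 at a pseudocount of 10 RPM and to 0.0329 without SE-BDEV 3.

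miR-1981-5p, from the Marc2 intron, was at 504, 228 and 246 RPM in CON-BDEV and at 250, 331 and 232 RPM in SE-BDEV. CON-BDEV 1 was highest and SE-BDEV 2 next, with the rest close together. The log2 difference was -0.19 ± 0.35 (SE, limma adjusted p = 0.884), or 0.18 ± 0.27 without CON-BDEV 1. Its profile followed that of miR-877-5p, with a Pearson r of 0.973 over the 6 libraries. Both values come from the same libraries, and both were highest in CON-BDEV 1. Its 3p arm, at 0.593 to 5.47 RPM, was 44.9 to 391 times lower.

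miR-1224-5p, from the Vwa5b2 intron, was at 154, 44.2 and 98.5 RPM in CON-BDEV and at 35.3, 49.6 and 61.2 RPM in SE-BDEV. CON-BDEV 1 and 3 were above every SE-BDEV library, while CON-BDEV 2 lay among them. The means were 98.9 ± 54.8 and 48.7 ± 12.9 RPM (SD, n = 3), a log2 difference of -0.87 ± 0.42 (SE, limma adjusted p = 0.438). Only leaving out CON-BDEV 2, the low control, brought it past the threshold (-1.35 ± 0.40, limma unadjusted p = 0.00097, adjusted p = 0.0429). That fit took its spread almost wholly from all tested miRNAs pooled, unlike the main fit. Such pooling lowers p for the same difference and standard error. Without CON-BDEV 1 the miR-1224-5p difference was -0.47 ± 0.41 (adjusted p = 0.844). Over its 18 alternatives the adjusted p ranged from 0.0429 to 0.844. The authors' deposited table gave a log2 fold change of -1.04 with an adjusted p of 0.399. The 3p arm was listed at 0 in all libraries.

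miR-3102-3p, from the Arhgef17 intron, was at 30.5, 12.6 and 22.3 RPM in CON-BDEV and at 7.88, 5.80 and 18.5 RPM in SE-BDEV. SE-BDEV 1 and 2 lay below all controls and SE-BDEV 3 within them. The log2 difference was -1.03 ± 0.46 (SE, limma unadjusted p = 0.0424, adjusted p = 0.438). This was the smallest unadjusted p among the 6 in the main test. Without CON-BDEV 1 the difference was -0.76 ± 0.50 (adjusted p = 0.844). Counts behind it were 29 to 147 reads per library.

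The Arhgef17 intron also holds an annotated inner pair of arms, between the outer 2. The inner 3p arm, miR-3102-3p.2-3p, was at 0, 7.98 and 12.9 RPM in CON-BDEV 1 to 3. In SE-BDEV 1 to 3 it was at 6.71, 10.4 and 12.3 RPM. CON-BDEV 1, highest for the outer 3p arm, was thus the 1 library in which the inner 3p arm was listed at 0. miR-3102-5p.2-5p was above 0 in 3 libraries, at 4.05 to 4.44 RPM.

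miR-3102-5p was listed at 0 in 5 libraries and at 11.9 RPM, 80 reads, in SE-BDEV 3. miR-702-5p, which carries the same seed and the same first 8 bases, had the same pattern, with 0 in 5 libraries and 10.4 RPM, 70 reads, in SE-BDEV 3. Only 3 features of the table were confined to SE-BDEV 3 at 10 RPM or more, these 2 arms and miR-3106-5p, which was named after its values were seen. The smallest value the table lists in any library is 2 reads, so a 0 may stand for 1 read or none. Whether a 0 can also hide a higher level was not tested. The abundant miR-24-3p, with group means of 1181 (CON-BDEV) and 1043 RPM (SE-BDEV), varied widely between libraries. Its log2 difference had a limma standard error of 5.38, and CON-BDEV 1 stood at -4.68 against the mean of the other 5 libraries. With miR-3102-5p at 0 in both groups but for 1 library, the log2 ratio of miR-3102-3p to miR-3102-5p (CON-BDEV 4.43 ± 0.61, SE-BDEV 2.17 ± 1.37, SD, n = 3) rested on the pseudocount and that library, and its two-sided exact permutation p of 0.1 was the smallest the design allows.

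miR-702-3p, from the Plod3 intron, was at 19.5, 3.81 and 8.82 RPM in CON-BDEV and at 3.19, 2.80 and 4.59 RPM in SE-BDEV. CON-BDEV 1 was 3.10 times the mean of the other controls, and CON-BDEV 2 lay within the SE-BDEV range. Its mean was under the filter. Without the filter the log2 difference was -1.15 ± 0.52 (SE, limma unadjusted p = 0.0496, adjusted p = 0.753). The authors' deposited table gave -1.63 (adjusted p = 0.477). Without CON-BDEV 1 the limma value was -0.62 (adjusted p = 0.861), and at a pseudocount of 10 RPM it was -0.55.

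**Figure D2:**
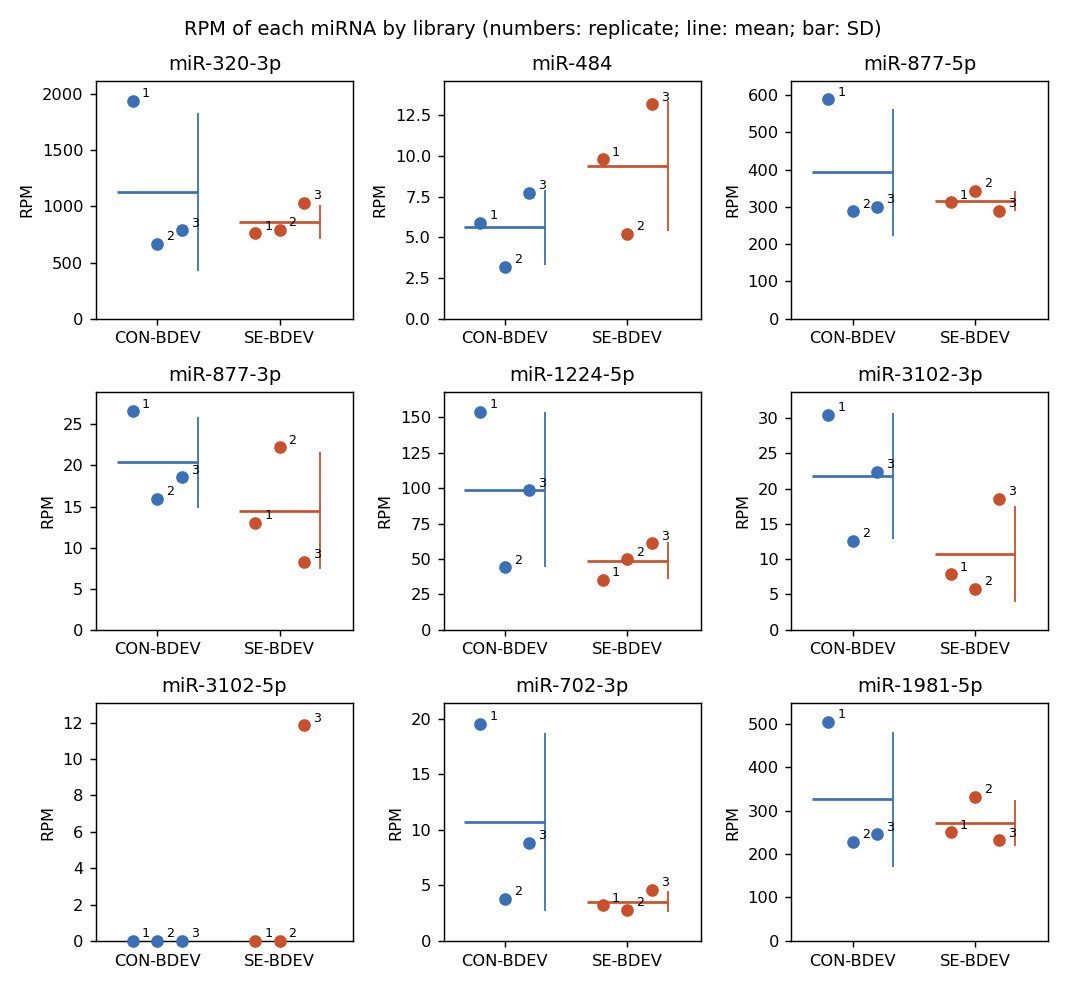
RPM of the 9 miRNAs in each library, with CON-BDEV in blue and SE-BDEV in red, replicate numbers beside the points, horizontal lines for group means and vertical bars for SD, cut at 0 (neither is drawn for miR-3102-5p, above 0 in 1 library). In 7 of the 9 panels CON-BDEV 1 is the highest library.

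Of the 9 miRNAs, 6 had a mean of 10 RPM or more and entered the limma test of 308 miRNAs, and 0 of these 6 passed at an adjusted p under 0.05. Over all tested miRNAs 3 passed (0.974%). At an unadjusted p under 0.05 there was 1 of 6, against 10.4% of all tested. The groups overlapped for all 6, against 16.2% of tested miRNAs whose groups did not overlap. All 6 had values below 0, with a median log2 difference of -0.39, against 42.5% of all tested below 0 and a median of 0.06. Without CON-BDEV 1, 3 of the 6 were below 0 and their median was -0.12, against 39.5% of the 301 then tested. When libraries were scaled to their total outside the 10 most abundant miRNAs, 53.2% of all tested were below 0, and the 6 stayed below 0. With the replicate number as a block, 10 of 308 passed (3.25%), of which 0 were among the 6, and their smallest adjusted p was 0.109. The blocked fit pooled the spread over miRNAs almost wholly, which the main fit did not. Its p-values are therefore not on the same footing as those of the main fit.

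The authors' deposited table gave 7 of the 9 a log2 fold change below 0. Of the 8 with an adjusted p in that table, 0 were under 0.05 (1.12% of all features with one). At an unadjusted p under 0.05 it held 2 of the 8, miR-1224-5p and miR-702-3p, against 6.52% of all features with a p.

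CON-BDEV 1 was the highest library for 7 of the 9 miRNAs and for 98 of 308 tested miRNAs (31.8%). Among tested miRNAs with a GC content of 60% or more it was highest for 39 of 56 (69.6%), and among those under 60% for 51 of 212 (24.1%). The deviation of CON-BDEV 1 from the mean of the other 5 libraries correlated with GC content across 268 miRNAs at a Pearson r of 0.595, while the same r ran from -0.304 to 0.0146 for the other libraries. miRNAs of 1 library share its preparation and are not independent replicates, so no p is given. CON-BDEV 1 was also the shallowest library. For miR-1224-5p the deviation was 1.49 on the log2 scale, the 14th highest of 308, and for miR-320-3p and miR-3102-3p it was 1.28 and 1.27. For miR-877-5p it was 0.94, for miR-1981-5p 0.98 and for miR-877-3p 0.80.

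With a linear and quadratic trend in GC removed within each library, the difference was 0.13 ± 0.22 for miR-877-5p (limma adjusted p = 0.896) and 0.0573 ± 0.29 for miR-1981-5p (adjusted p = 0.950). It was -0.47 ± 0.38 for miR-1224-5p, -0.73 ± 0.42 for miR-3102-3p and -0.27 ± 0.35 for miR-877-3p, with adjusted p of 0.631 to 0.853. miR-320-3p was not fitted there. The part of base composition in the control values was not tested beyond this fit.

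**Figure D3:**
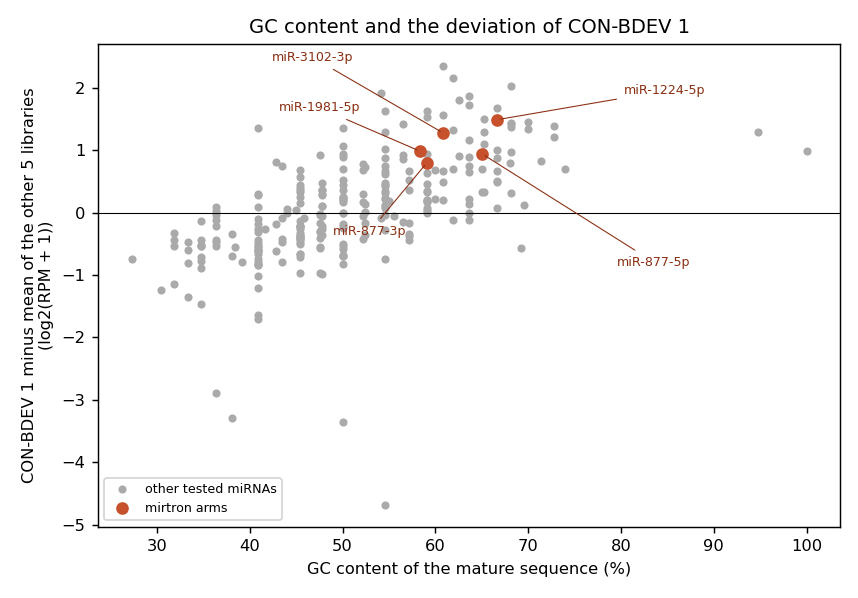
GC content of the mature sequence (%, x axis) against the value of CON-BDEV 1 minus the mean of the other 5 libraries on the log2(RPM + 1) scale (y axis) for 268 tested miRNAs, with 5 mirtron arms in red. The 5 red points lie between 0.80 and 1.49, in the part of the cloud with high GC content and values above 0.

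**Figure D4:**
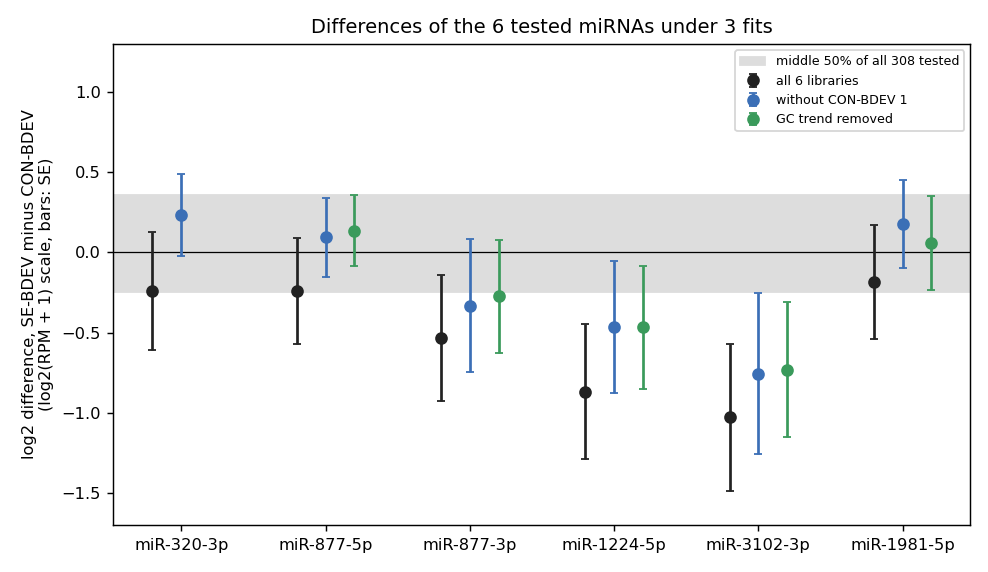
Log2 difference of SE-BDEV minus CON-BDEV with its standard error for the 6 tested miRNAs, with all libraries (black), without CON-BDEV 1 (blue) and with the GC trend removed (green, not fitted for miR-320-3p); the gray band holds the middle 50% of all 308 tested values. miR-320-3p, miR-877-5p and miR-1981-5p lie on both sides of 0 across these fits, and miR-877-3p, miR-1224-5p and miR-3102-3p stay below it.

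In sum the 9 miRNAs held 2007 ± 1099 RPM in the controls against 1537 ± 139 RPM after status epilepticus (SD, n = 3), of which miR-320-3p was the largest part. The controls were at 3270, 1264 and 1488 RPM and the SE-BDEV libraries at 1392, 1551 and 1669 RPM. Without CON-BDEV 1 the control mean was 1376 RPM, below the SE-BDEV mean. The 7 mirtron arms alone summed to 1324, 593 and 695 RPM in CON-BDEV and to 621, 754 and 626 RPM in SE-BDEV.

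Other miRNAs named in a list of products made outside the usual Drosha and Dicer route showed no call. Of its 16 names 14 had a row, 12 were above 0 and 5 entered the test, 4 with values above 0 and 1 below, with a median log2 difference of 0.07. miR-1839-5p, cut from a small nucleolar RNA, was the most abundant, with a CON-BDEV mean of 214 ± 56.0 RPM and an SE-BDEV mean of 279 ± 34.2 RPM (SD, n = 3), a log2 difference of 0.41 (limma adjusted p = 0.673). It was lowest in CON-BDEV 1, at 152 RPM. miR-668-3p had a log2 difference of -0.53 (adjusted p = 0.608), miR-664-3p of 0.14, miR-664-5p of 0.07 and miR-344d-3p of 0.06. miR-451a, which is cut by Drosha but bypasses Dicer, was listed at 0 in all libraries, as was miR-1982-5p.

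Of the other arms of the 7 hairpins, 6 of 7 names had a row, 4 were above 0 and 0 reached a mean of 10 RPM.

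The tested miRNAs with the most similar profiles over the 6 libraries were found by Pearson r of log2(RPM + 1). This is a description: the profiles come from the same libraries, which differ in depth. For miR-320-3p they were the merged miR-486a-5p/486b-5p (0.945), miR-7240-5p (0.943) and miR-7080-5p (0.928). For miR-877-5p they were miR-485-5p (0.976), miR-1981-5p (0.973) and miR-503-5p (0.960). For miR-1224-5p they were let-7d-3p (0.991), miR-328-3p (0.961) and miR-485-3p (0.958), and for miR-3102-3p miR-668-3p (0.950), miR-770-5p (0.940) and miR-673-5p (0.918). miR-484 stood with another set, miR-34c-5p (0.973), miR-143-3p (0.946) and miR-487b-3p (0.915). Against the mean of the other 5 libraries, CON-BDEV 1 was at -0.36 to -0.06 on the log2 scale for the set beside miR-484. For those named beside the other members it was at 0.63 to 1.67. How far their r values rest on that 1 library was not tested.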

How the data were processed

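The authors deposited RPM values for 1926 miRNA features in 6 libraries. They also deposited a table of their own comparison, with a mean normalized signal, log2 fold changes, a test score and p-values, per the file headers. DESeq2 and the build mm9 are named, per the submitters' processing notes. Names of the aligner and counter were not given in the sources used here. The library kit was QIAseq miRNA, per the labels' protocols.

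RPM values were whole multiples (tolerance 0.001) of 1 step per library, taken as 1 read. No single read is listed, so no count model was fitted. limma 3.58.1 (R 4.3.3, statmod 1.5.0; trend, robust) was run on log2(RPM + 1) for the 308 miRNAs that averaged at least 10 RPM, two-sided, with Benjamini-Hochberg adjustment and a threshold of 0.05; this scale understates the change of low miRNAs. It was tested on simulated counts, drawn independently with the same dispersion for every miRNA. They held no GC trend by library, so that setting was not covered. Members were matched by name, and the 9 members, the lists and the tests were chosen with earlier results of these data known; the text names all members, and the 3 miRNAs most similar to 5 of them by Pearson r. RefSeq gave sequences for 268 of the 308 and 8 of the 9. Coordinates are GRCm38, used for names and intron ends only. Figures used matplotlib 3.10.9.

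The groups share replicate numbers. Deviations from group means correlated at 0.216, 0.202 and 0.462 for the pairs numbered 1, 2 and 3, over the bound of 0.1. Pairs of unlike number ran from -0.410 (CON-BDEV 3 with SE-BDEV 1) to 0.336 (CON-BDEV 2 with SE-BDEV 1). Without miR-24-3p the pairs of like number were at -0.0639, -0.0614 and -0.0806, and those of unlike number reached 0.0763. Blocked values are therefore given with that limit.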

Additional observations from a re-analysis of the deposited data

How the results depend on the processing

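Against 3 called miRNAs in all, it was 1 when only miRNAs averaging at least 100 RPM were tested, 10 with the replicate block and 2 to 8 with 1 library left out, the 8 without CON-BDEV 2. The fits with the block and without CON-BDEV 2 pooled the spread over miRNAs almost wholly. Their counts are therefore not on the same footing as that of the main fit. Against 0 called members it was 0 to 1 with 1 library left out, the 1 being miR-1224-5p without CON-BDEV 2, and 0 under every other alternative, the block included. Signs turned for miR-877-5p (0.13) and miR-1981-5p (0.0573) once the GC trend was taken out, both with the replicate block and without it. Leaving out 1 library gave -0.53 to 0.23 for miR-320-3p, -0.42 to 0.0930 for miR-877-5p and -0.39 to 0.18 for miR-1981-5p, the highest values being those without CON-BDEV 1 and the lowest those without CON-BDEV 2; the cause was not tested. The summed level had a log2 ratio of -0.38, and -0.63 to 0.16 with 1 library left out. miR-484, miR-702-3p, miR-877-3p, miR-1224-5p and miR-3102-3p kept their sign under each alternative that tested them, and miR-3102-5p could not be fitted without SE-BDEV 3. The arm ratios kept their sign, at 0.0329 to 0.57 for miR-877 and -2.75 to -1.47 for miR-3102 with 1 library left out. The -1.47 is the value without SE-BDEV 3, where miR-3102-5p was 0 in every library left. It is thus the difference of miR-3102-3p alone and tells nothing about the ratio of these arms. At a pseudocount of 10 RPM the arm ratios were 0.0984 and -1.0, and at 0.1 RPM 0.33 and -3.41. The block gave the same differences (0.29 and -2.26, exact sign-flip p = 0.75 and 0.25). The planned edgeR and DESeq2 fits were not run, because the table lists no single reads. Arms with under 150 reads in every library, such as miR-484 and miR-3102-3p, are also limited by counting error.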

Other observations

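The annotation holds further hairpins with the exact ends of an intron. Those outside the members' hairpins gave 26 mature miRNAs with a row, of which 7 were above 0, 5 had a mean of 1 RPM or more and 1 a mean of 10 RPM or more. This set was chosen after seeing the data, from annotation alone, and gets no test as a set. The 1 was miR-7080-5p, from an intron of Cpne7, a calcium-dependent membrane-binding protein. It was at 134, 50.9 and 40.7 RPM in CON-BDEV and at 40.7, 40.6 and 52.0 RPM in SE-BDEV (log2 difference -0.56 ± 0.41, SE, limma adjusted p = 0.653). CON-BDEV 1 was again the single high library, with the other 5 within 40.6 to 52.0 RPM, and the GC content of miR-7080-5p is 60.9%. miR-6944-3p, from an intron of Dbn1, which encodes the dendritic spine protein drebrin, was at 2.27 to 2.89 RPM in CON-BDEV and at 3.19, 0 and 2.07 RPM in SE-BDEV. miR-7068-5p, from an intron of Cherp, was above 0 only in CON-BDEV 3 (9.58 RPM) and SE-BDEV 3 (4.15 RPM). The same 2 libraries alone listed miR-3547-3p (2.74 and 2.07 RPM), and CON-BDEV 3 alone listed miR-7060-5p (9.12 RPM). By contrast miR-1982-3p and miR-6944-3p were above 0 in 5 libraries, and both arms of miR-7080 in 6. Why some arms were listed only in libraries numbered 3 was not tested.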
